A study of Mus musculus with 7 samples.

Results

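Lysosome genes were examined in EpCAM+ cholangiocytes, the epithelial cells that line bile ducts, sorted from mouse liver. The set is a list of 36 gene symbols. Its rule uses no measured value, though its members were chosen with earlier results of these data known. All 36 were found among the 24552 symbols of the count table. Every mouse was of the Foxp3GFPDTR strain and ate DDC, a compound that injures bile ducts, for 10 days. In this strain regulatory T cells, marked by Foxp3, carry green fluorescent protein and the receptor for diphtheria toxin. One group had PBS injected into the peritoneum (PBS, 4 libraries), and the other had diphtheria toxin at 1 µg per kg (DT, 3 libraries), every 48 h in each case. No group without DDC was analysed here, so both groups share the injury, and no group without the transgene received toxin. The labels do not say whether each library came from 1 animal or from a pool.

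Lysosomes are acidic compartments that break down proteins, sugars and lipids delivered by endocytosis and autophagy. Their lumen holds hydrolases such as the cathepsins, their membrane is lined by glycosylated proteins such as Lamp1 and Lamp2, and a proton pump keeps them acidic. The transcription factor Tfeb activates many lysosome genes through an E-box with the core CACGTG, and macrophages, which degrade what they take up, are known for high lysosome gene expression.

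The E-box core was sought in RefSeq promoter windows (build GRCm38.p6; 250 bases before to 50 after each start), of which 36 belonged to 31 of the 36 genes. Ctsb, Ctsh, Npc1, Asah1 and Laptm4b had no entry. CACGTG reads the same on either strand and lies within the longer forms TCACGTGA and GTCACGTGAC, which were searched as well. It was present for 10 of 31 lysosome genes (32.3%), against 2187 of 27025 genes with a window (8.09%). Among the other genes of the lysosome, autophagy and mTORC1 lists used further on, it was present for 27 of 118 (22.9%). TCACGTGA was present for 5 of 31 (16.1%, against 1.12% of all and 10.2% of the other listed genes) and GTCACGTGAC for 1 of 31 (3.23%, against 0.37% and 2.54%). Lamp1 held the most matches (4) and Igf2r the longest, and both promoters are printed. Ctsd, whose CPM is given below in every library, is printed as an example of the genes with 2 matches. Ctsa, Gla and Mcoln1 also held 2. The sequences run 5′ to 3′ on the strand of the gene and up to the start, or to the end of a match that spans it, with matches in capitals. In Lamp1 the first base of CACGTG lay 61, 45, 28 and 15 bases upstream of the start. In Ctsd it lay 245 and 98 bases upstream, and in Igf2r 48 and 7 bases upstream, the latter within GTCACGTGAC.
Lamp1, chr8:13158911-13159160, plus strand: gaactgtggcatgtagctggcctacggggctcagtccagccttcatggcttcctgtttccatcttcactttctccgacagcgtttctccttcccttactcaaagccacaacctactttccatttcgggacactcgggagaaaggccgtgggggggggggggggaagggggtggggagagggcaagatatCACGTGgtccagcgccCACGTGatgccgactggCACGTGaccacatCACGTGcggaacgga
Ctsd, chr7:142387828-142388077, minus strand: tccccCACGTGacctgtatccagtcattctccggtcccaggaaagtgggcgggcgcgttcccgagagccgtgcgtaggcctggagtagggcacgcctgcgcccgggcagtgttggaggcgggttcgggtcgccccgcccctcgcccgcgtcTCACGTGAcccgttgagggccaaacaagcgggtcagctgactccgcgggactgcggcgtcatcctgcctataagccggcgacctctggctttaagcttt
Igf2r, chr17:12769706-12769956, minus strand: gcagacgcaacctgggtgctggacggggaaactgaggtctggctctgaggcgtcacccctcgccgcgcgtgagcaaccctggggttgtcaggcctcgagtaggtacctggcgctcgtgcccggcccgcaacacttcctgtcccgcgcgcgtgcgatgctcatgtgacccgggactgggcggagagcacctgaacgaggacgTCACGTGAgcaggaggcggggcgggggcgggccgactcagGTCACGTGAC
The other 7 genes with a match are shown by 30 bases centred on their longest one.
Ctsa, chr2:164833766-164833795, plus strand: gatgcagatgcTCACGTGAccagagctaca
Ctsl, chr13:64370739-64370768, minus strand: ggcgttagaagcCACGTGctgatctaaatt
Gla, chrX:134601182-134601211, minus strand: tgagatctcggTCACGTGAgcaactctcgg
Glb1, chr9:114401018-114401047, plus strand: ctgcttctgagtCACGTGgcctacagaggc
Sgsh, chr11:119355522-119355551, minus strand: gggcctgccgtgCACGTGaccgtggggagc
Mcoln1, chr8:3500462-3500491, plus strand: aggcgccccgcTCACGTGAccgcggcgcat
Lgmn, chr12:102439124-102439153, minus strand: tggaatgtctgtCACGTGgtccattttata
These letters describe the windows and are not evidence of binding in these cells. Of the tested genes with a window, 7 held CACGTG, and their fold changes between DT and PBS were positive in 3 and negative in 4 (median log2 fold change -0.26). The 19 without it had 13 positive and 6 negative (median 0.05). No test was made of that difference.

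Total counts ran from 4805018 to 6285624 per library, and 5419 to 8361 genes had a count above 0. Levels are given as CPM, the counts of a gene scaled to the TMM-corrected size of its library. They are reads from 3′ ends and were not divided by transcript length. Levels are compared between libraries and not between genes. The sorting marker Epcam had 3608 to 5079 counts in the PBS and 3810 to 4840 in the DT libraries. The 12 listed cholangiocyte markers together made up 2.23% to 2.67% of PBS and 2.43% to 2.60% of DT counts. The libraries also differed in other ways. Y-linked genes had 2048 counts in PBS 1, 0 in PBS 2 to 4 and 880 to 1681 in the DT libraries. Xist, which is expressed from the inactive X chromosome of female cells, had 10420 to 17627 counts in PBS 2 to 4, 630 in PBS 1, 453 in DT 1 and 0 in DT 2 and DT 3. PBS 1 and DT 1 thus had reads of both kinds, and for the other 5 libraries sex cannot be told apart from treatment. Hepatocyte markers made up 0.275% to 0.412% of PBS and 0.497% to 0.556% of DT counts.

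Expression of the lysosome genes was compared between DT and PBS to ask whether this degradative machinery of injured bile duct cells differed when Foxp3-positive cells were targeted. None of the lysosome genes passed the test. The gene with the smallest p was Lamp2, a lysosomal membrane glycoprotein, at 192 ± 74.7 CPM under PBS (SD, n = 4) and 379 ± 203 CPM under DT (SD, n = 3). Psap, the precursor of the saposins that help enzymes degrade sphingolipids, averaged 539 ± 446 CPM under PBS and 1141 ± 413 CPM under DT. The cathepsin genes Ctsb, Ctsd and Ctsl averaged 554 ± 360.5, 423 ± 329 and 329 ± 118 CPM under PBS and 434 ± 277, 354 ± 124 and 272 ± 174 CPM under DT, differences smaller than the spread between libraries. Summed over the 36 genes, the level was 6434 ± 2024 CPM under PBS (SD, n = 4) and 7215 ± 465 CPM under DT (SD, n = 3).

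A filter on low counts left 7688 genes to test, with 31 of the 36 among them. Gla, Lipa, Sgsh, Tfeb and Mcoln1 did not pass it. By the edgeR quasi-likelihood test with Benjamini-Hochberg adjustment over all tested genes, 0 of 31 had an adjusted p below 0.05 in either direction (background 0.039%), and all had an adjusted p of 1.00. At an unadjusted p below 0.05 there were 0 of 31 by edgeR, where 3.5% of all tested genes passed. There was 1 by DESeq2 (background 6.15%) and there were 3 by limma-voom (background 6.93%). After adjustment limma-voom called 0 of 31, and DESeq2 called none of those it gave a p (all but Man2b1). Fold changes were positive for 18 and negative for 13 of the 31, beside 49.3% positive among all tested genes. Their median log2 fold change was 0.04, and that of all tested genes -0.02. In bulk RNA a different share of cells of a type cannot be told apart from a different amount of RNA per cell.

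**Figure D1:**
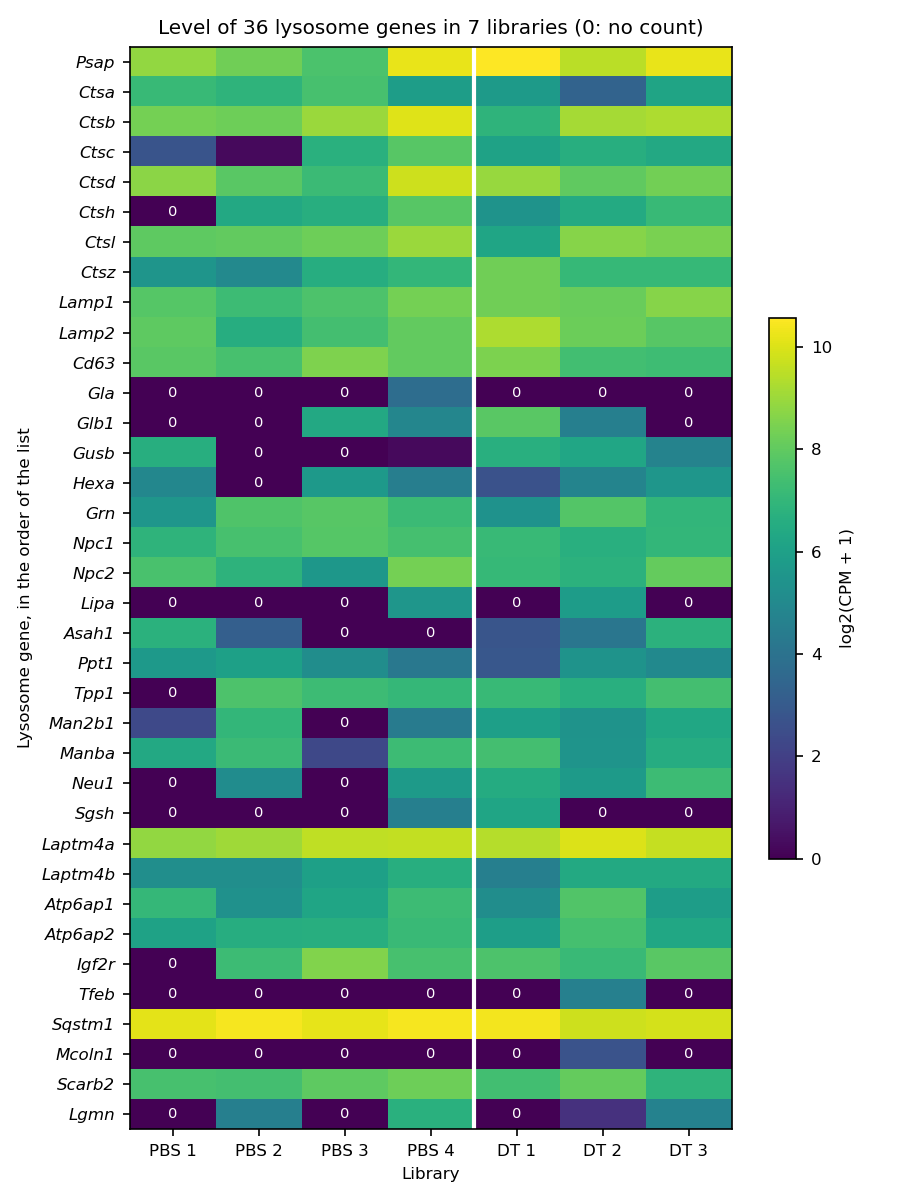
Heat map of log2(CPM + 1) for the 36 lysosome genes (rows) in the 4 PBS and 3 DT libraries (columns), with 0 printed where a library had no count. Sqstm1 and Laptm4a are bright in every library, while Tfeb and Mcoln1 have counts in DT 2 alone.

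Psap had 466, 315, 189 and 1187 CPM across PBS 1 to 4 and 1526, 704 and 1193 CPM across DT 1 to 3. PBS 1 to 3 lay below every DT library, and PBS 4 lay within the DT range. The log2 fold change was 1.08 (95% interval -0.19 to 2.36, SE 0.57, edgeR adjusted p = 1.00). Without PBS 4 it was 1.82 (SE 0.39, edgeR adjusted p = 0.365), and without PBS 3 or without DT 1 it was 0.79. With the hepatocyte marker score as a covariate it was 0.10 (SE 0.67, edgeR adjusted p = 1.00). Hepatocyte markers were higher in every DT library than in every PBS library, so that score cannot be told apart from treatment. In the same fit the median log2 fold change of all tested genes was -0.60. With a macrophage marker score as a covariate, Psap was at 1.04, and at 0.83 with Cd14 and Cd74 left out of that score.

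Cathepsins, most of them cysteine or aspartic proteases, do much of the protein breakdown in lysosomes. With the serine carboxypeptidase Ctsa, legumain (Lgmn) and the serine peptidase Tpp1, the list holds 9 proteases. All 9 were tested, with 2 positive and 7 negative fold changes (median log2 fold change -0.26) and 0 past the threshold. Ctsb, a cysteine cathepsin, had 327, 306, 507 and 1078 CPM across PBS 1 to 4 and 116, 561 and 624 CPM across DT 1 to 3. DT 1 was thus the lowest and PBS 4 the highest library, and the groups overlapped. The log2 fold change of Ctsb was -0.35 (95% interval -1.54 to 0.83). Ctsl, another cysteine cathepsin, followed the same order at its ends, with 247, 263, 303 and 502 CPM across PBS 1 to 4 and 74.3, 398 and 344 CPM across DT 1 to 3. Its log2 fold change was -0.27 (95% interval -1.30 to 0.76). Ctsd, the aspartic cathepsin, had 431, 234, 145 and 883 CPM under PBS and 492, 251 and 320.3 CPM under DT. Here DT 1 was the highest of the DT libraries, unlike for Ctsb and Ctsl, and PBS 4 again exceeded all others. The log2 fold change of Ctsd was -0.26 (95% interval -1.23 to 0.72). These 3 signs depended on single libraries. Without PBS 4 the log2 fold changes were 0.18 for Ctsb, 0.39 for Ctsd and 0.000075 for Ctsl, and without DT 1 they were 0.07, -0.59 and 0.15.

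Ctsz, a cathepsin with carboxypeptidase activity, was the one tested lysosome gene whose groups did not overlap (1 of 31, where 6.31% of all tested genes had no overlap in either direction). It had 44.6, 30.2, 95.8 and 129 CPM across PBS 1 to 4 and 312, 133 and 134 CPM across DT 1 to 3. DT 1 was far above the rest, while DT 2 and DT 3 were close to PBS 4. Its log2 fold change of 1.37 (95% interval -0.57 to 3.30, edgeR adjusted p = 1.00) was 0.81 without DT 1. Ctsa, the protective protein that stabilises the lysosomal galactosidase and neuraminidase, went the other way, at 124 ± 51.2 CPM under PBS and 44.5 ± 31.7 CPM under DT (log2 fold change -1.48, SE 1.48). Its lowest library was DT 2, with 50 counts, and its highest PBS 3, with 885. Ctsc, which activates granule proteases in immune cells, had 29, 1, 502 and 1142 counts across PBS 1 to 4 and 404, 524 and 472 across DT 1 to 3. Ctsh, an aminopeptidase, had 0, 418, 473 and 1142 counts under PBS and 253, 462 and 797 in DT. For Ctsc and Ctsh the PBS libraries thus spanned a wider range than the DT libraries and enclosed it. Lgmn, an asparaginyl endopeptidase, had counts in 2 PBS and 2 DT libraries, the most in PBS 4 (523). Tpp1, which removes tripeptides, had 0 counts in PBS 1 and 535 to 988 in the other 6 libraries.

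**Figure D2:**
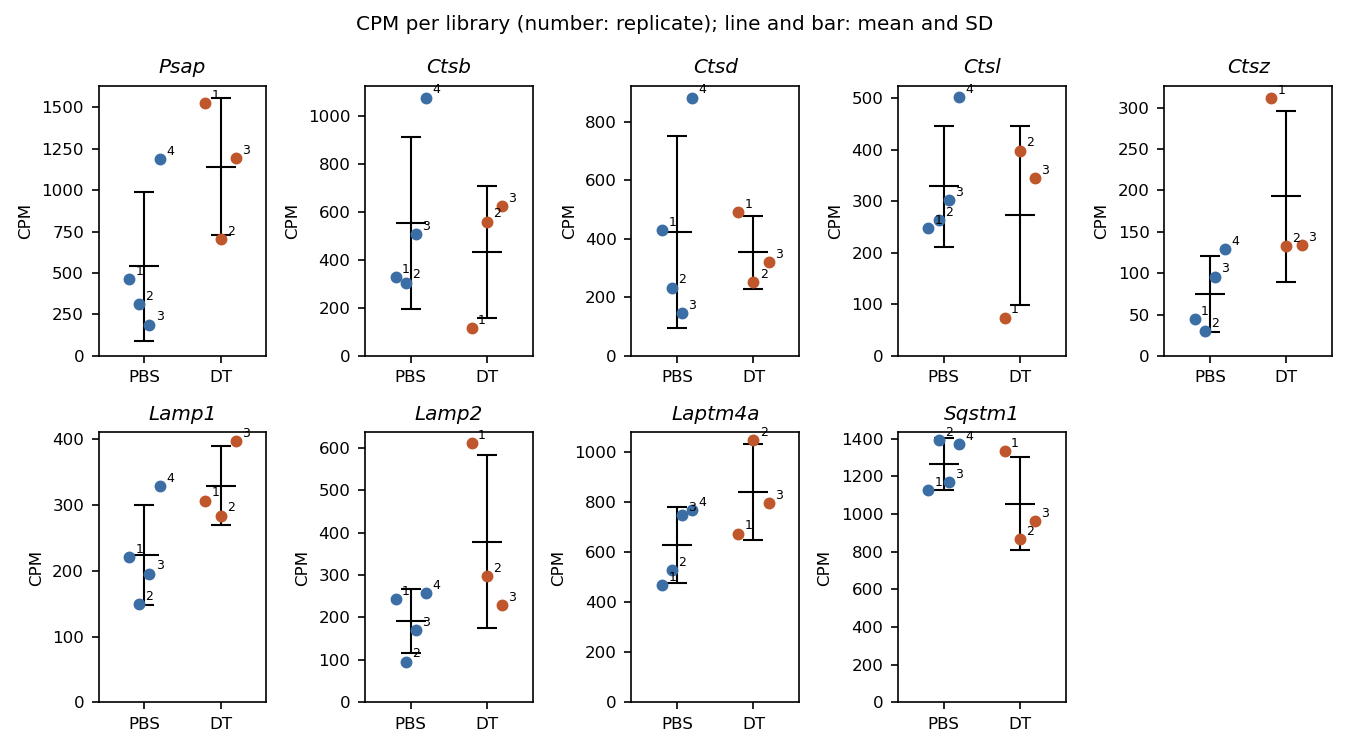
CPM of 9 lysosome genes in each library (points, numbered by replicate), with the mean and SD of each group (lines and bars); every axis starts at 0. PBS 4 lies above the other PBS libraries for every gene shown but Sqstm1, though only slightly for Lamp2 and Laptm4a. DT 1 is the lowest library for Ctsb and Ctsl and the highest for Psap, Ctsz and Lamp2.

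Glycosidases and a sulfatase that trim sugars from glycoproteins, glycolipids and glycosaminoglycans were thinly read. Of 8 listed, 6 were tested, all with positive fold changes (median log2 fold change 1.07) and 0 past the threshold. Neu1, the lysosomal sialidase, had 0, 174, 0 and 273 counts across PBS 1 to 4 and 537, 284 and 854 across DT 1 to 3. Every DT library had more counts than every PBS library, but in CPM DT 2 (53.3) lay just below PBS 4 (53.9). Its log2 fold change was 2.15 with a 95% interval from -2.62 to 6.91. Glb1, the β-galactosidase used as a senescence marker, had 0, 0, 397 and 143 counts under PBS and 1414, 122 and 0 in DT. Gusb, the β-glucuronidase, had 505, 0, 0 and 1 counts under PBS and 611, 405 and 145 in DT, so that PBS 1 lay within the DT range and the others below it. The mannosidase genes Man2b1 and Manba averaged 37.7 ± 60.0 and 95.7 ± 68.4 CPM under PBS and 60.5 ± 17.8 and 102 ± 65.0 CPM under DT. Hexa, the alpha subunit of β-hexosaminidase, averaged 25.2 ± 20.9 and 26.1 ± 20.6 CPM. Gla, an α-galactosidase, had 65 counts in PBS 4 and 0 elsewhere, and Sgsh, a sulfatase of heparan sulfate, had 116 in PBS 4, 438 in DT 1 and 0 elsewhere.

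Enzymes and carriers of lysosomal lipid handling showed no common direction, with 2 positive and 2 negative fold changes among 4 tested of 5 listed. Npc1 and Npc2 pass cholesterol out of the lysosome. Npc1 averaged 172 ± 42.3 CPM under PBS and 122 ± 18.6 CPM under DT (log2 fold change -0.50, SE 0.78), with 115, 179.8, 217 and 177 CPM across PBS 1 to 4 and 138, 101 and 126 CPM across DT 1 to 3. The DT libraries lay among or below the PBS libraries, with PBS 1 inside their range. Npc2 averaged 169 ± 120.5 CPM under PBS and 171 ± 84.2 CPM under DT, and PBS 4 had 328 CPM. Asah1, the acid ceramidase, had 556, 41, 0 and 0 counts under PBS and 35, 88 and 630 in DT, a spread that did not follow the groups. Ppt1, which removes palmitate from proteins, averaged 42.0 ± 19.5 and 26.7 ± 18.4 CPM. Lipa, the acid lipase that frees cholesterol from its esters, had counts in PBS 4 (234) and DT 2 (305) alone.

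Lysosomal membrane proteins had 4 positive fold changes and 1 negative among 5 tested of 6 listed (median log2 fold change 0.42), with 0 past the threshold. Lamp1 had 221, 149.7, 196 and 329 CPM across PBS 1 to 4 and 307, 284 and 398 CPM across DT 1 to 3. Only PBS 4 reached into the DT range. Its log2 fold change was 0.56 (95% interval -0.44 to 1.56). Lamp2 had 244, 96.2, 170.3 and 258 CPM under PBS and 610.0, 297 and 229 CPM under DT, with DT 1 far above the rest and DT 3 among the PBS libraries. Its log2 fold change was 0.98 (95% interval -0.06 to 2.01, unadjusted p = 0.0630, edgeR adjusted p = 1.00) and 0.43 without DT 1. Laptm4a, a small transporter-like protein of late endosomes, had 469, 529, 747 and 769 CPM under PBS and 674, 1048 and 796 CPM under DT. Of its DT libraries, DT 2 and DT 3 lay above all PBS libraries and DT 1 did not (log2 fold change 0.42, 95% interval -0.23 to 1.07). Laptm4b, its paralog, averaged 58.5 ± 28.8 and 64.0 ± 35.6 CPM. Cd63, a tetraspanin of late endosomes and exosomes, averaged 262 ± 82.6 CPM under PBS and 227 ± 115 CPM under DT, with its highest values in PBS 3 (374) and DT 1 (359).

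The accessory subunits of the proton pump, Atp6ap1 and Atp6ap2, averaged 99.2 ± 52.0 and 101 ± 32.0 CPM under PBS and 101 ± 94.6 and 104 ± 61.7 CPM under DT, log2 fold changes of 0.02 (95% interval -2.49 to 2.54) and 0.04 (95% interval -2.37 to 2.45). For each of them DT 2 was the highest library and DT 1 the lowest. Igf2r, the receptor that sorts hydrolases tagged with mannose 6-phosphate, had 0 counts in PBS 1 and 143 to 383 CPM in the other 6 libraries. Scarb2, which carries β-glucocerebrosidase to the lysosome, averaged 224 ± 62.2 and 185 ± 79.0 CPM, and Grn, which encodes progranulin, averaged 155 ± 80.2 and 127 ± 86.6 CPM. Grn was low in PBS 1 (46.2 CPM) and DT 1 (41.0 CPM) and between 125 and 228 CPM in the other libraries.

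Sqstm1, the p62 receptor that delivers ubiquitinated cargo to autophagosomes, had the tightest PBS values among the 8 lysosome genes whose average reached 8 on the log2 CPM scale. It had 1125, 1393, 1171 and 1373 CPM across PBS 1 to 4 and 1335, 868 and 963 CPM across DT 1 to 3. DT 2 and DT 3 lay below every PBS library and DT 1 among them (log2 fold change -0.26, 95% interval -0.81 to 0.29). Tfeb had 124 counts in DT 2 and 0 in the other 6 libraries. Mcoln1, the calcium channel of the lysosomal membrane, had 29 counts in DT 2 and 0 elsewhere. By counting error a 0 allows up to 3 counts in a library, but counts of 0 were common in these libraries at higher means. For a mean of 100 to 200 counts in the remaining libraries of the group, 43.5% of all values were 0, and 11 of 24 values of lysosome genes (45.8%). Between 200 and 500 counts these shares were 25.6% and 5 of 48 (10.4%). The 31 tested lysosome genes had 0 counts in 12.1% of their PBS and 2.15% of their DT values, beside 21.7% and 20.3% for all tested genes.

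**Figure D3:**
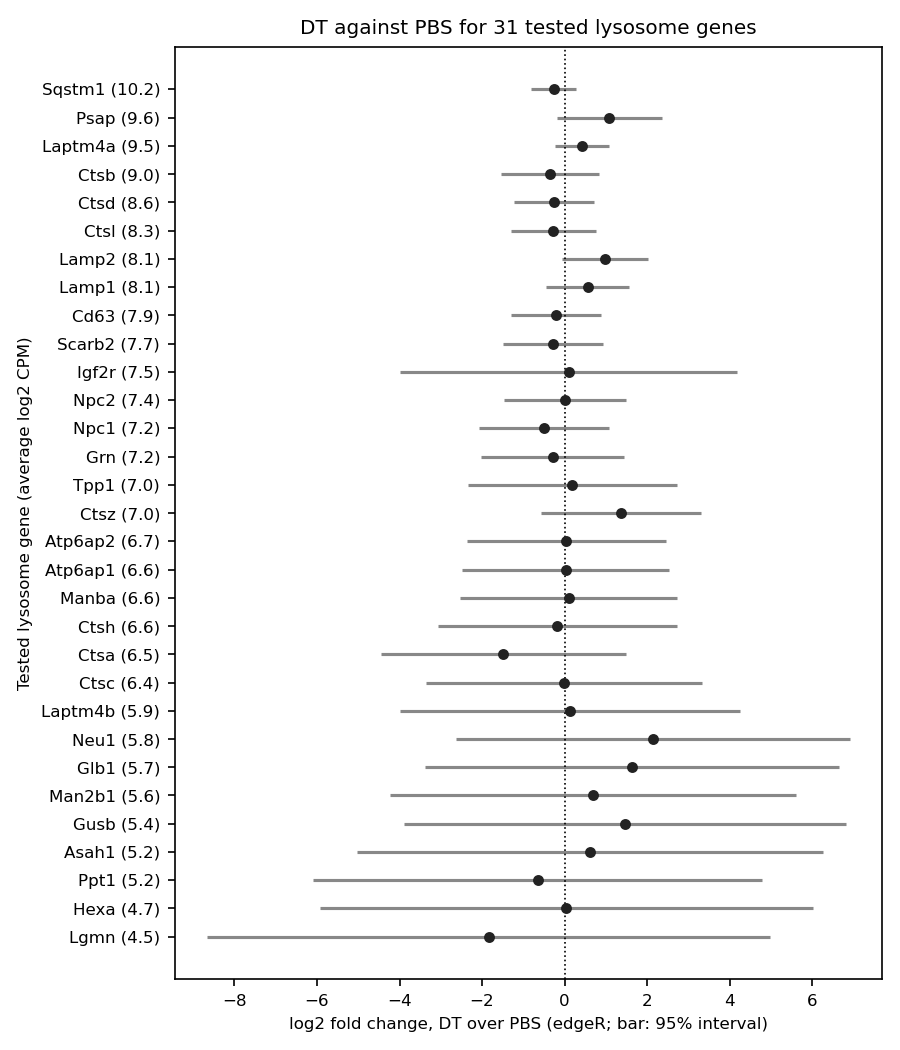
Log2 fold change of DT over PBS (points) with its 95% interval (bars) for the 31 tested lysosome genes, ordered by their average log2 CPM, which stands in brackets. Every interval includes 0, and intervals widen from 1.10 log2 units for Sqstm1 at the top to 13.7 for Lgmn at the bottom.

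At that level (an average log2 CPM of at least 8), where counts of 0 were few, 4 of 8 lysosome genes had positive fold changes (background 52.7%). Their median log2 fold change was 0.08 and that of all 733 such genes 0.03. In size, their median change without sign was 0.39, against 0.33 for all 733. For genes at 256 to 1000 CPM the median coefficient of variation was 38.9% in PBS and 36.2% in DT for 7 lysosome genes, and 33.7% and 32.5% for all 621 genes.

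PBS 4 stood apart from the other PBS libraries. It was the highest of the 4 for 18 of 31 tested lysosome genes (58.1%), where it was the highest for 28.7% of all tested genes, and for 7 of the 9 proteases. Its summed level over the 36 genes was 9416 CPM, against 5083, 5274 and 5961 CPM in PBS 1 to 3 and 7649, 6724 and 7271 CPM across DT 1 to 3. All DT libraries thus lay above PBS 1 to 3 and below PBS 4. Among the PBS libraries, markers of other cells were also high in PBS 4. Neutrophil markers summed to 386 CPM there and to 0 to 23.5 CPM in the other PBS libraries, and hepatocyte markers to 4478 CPM against 2637 to 3655 CPM. Across DT 1 to 3 neutrophil markers summed to 36.7, 191 and 96.3 CPM. Hepatocyte markers summed to 5027, 5378 and 6168 CPM there, above PBS 4 in each. PBS 4 had counts for the most genes (8361). Of 21 listed macrophage markers in the table, 4, 8, 3 and 20 had counts across PBS 1 to 4 and 11, 17 and 17 across DT 1 to 3, and Adgre1, which encodes F4/80, had 0 counts everywhere. Their summed level was 975, 1829, 1716 and 2826 CPM across PBS 1 to 4 and 1634, 2179 and 2567 CPM across DT 1 to 3. Much of it was Cd14, which did not follow this order, with 809, 1473, 1449 and 874 CPM across PBS 1 to 4. Cd14, Cd74 and Csf1r had counts in every library, Csf1r only 1 in DT 1. Without Cd14 and Cd74, a choice made after their values were seen, it was 63.1, 203, 56.4 and 1801 CPM across PBS 1 to 4 and 315, 800 and 1089 CPM across DT 1 to 3. Lyz2, a macrophage lysozyme gene, had 1522 counts in PBS 4, 0 to 8 in the other PBS libraries and 69 to 330 in DT. Not every marker was highest in PBS 4. Cd74, C1qb, Vsig4, Tyrobp, Laptm5, Cd52, Ptprc and Itgam were highest in a DT library, and Cd14 and Aif1 in PBS 2. DT 1 had the fewest macrophage marker reads of the DT libraries. The part of RNA from these other cells in the lysosome gene levels was not tested. Without PBS 4 the fold changes of 30 tested lysosome genes were positive in 22 and negative in 8. Their median log2 fold change was 0.35 (all tested genes 0.04), and 0 were past the threshold. PBS 4 was singled out by the levels of these same genes, so leaving it out raises their fold changes by construction. With the macrophage marker score as a covariate, 13 were positive and 18 negative, with a median of -0.13 (all tested genes -0.12). With Cd14 and Cd74 left out of that score, 11 were positive and 20 negative, with a median of -0.28 (all tested genes -0.02). Neither fit put a lysosome gene past the threshold. Both scores include Laptm5, which is also in the list of further membrane proteins used below, so they are not independent of lysosome genes. The score without Cd14 and Cd74 was also higher in every DT library than in PBS 1 to 3, and so partly overlaps with treatment.

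**Figure D4:**
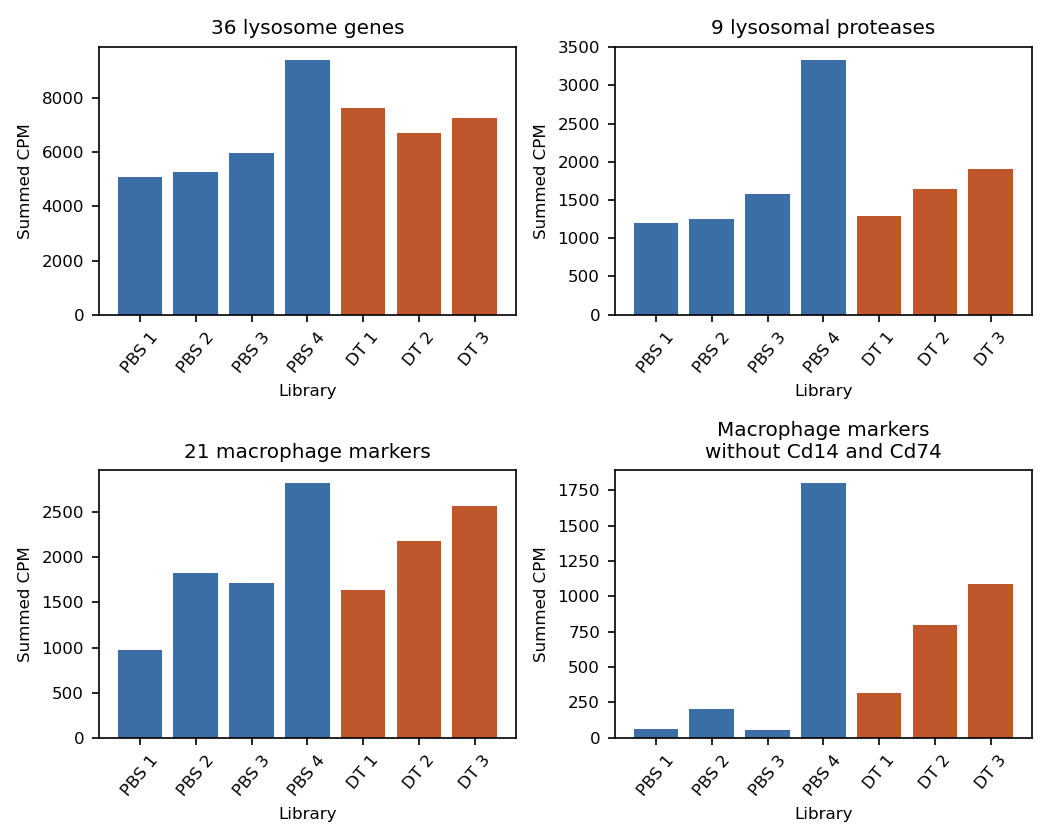
Summed CPM per library (bars; PBS blue, DT orange) of the 36 lysosome genes, of the 9 lysosomal proteases, of the 21 macrophage markers and of these without Cd14 and Cd74. PBS 4 is the highest bar in each panel, at 9416, 3335, 2826 and 1801 CPM.

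Other genes of the pathway were listed by function, also with earlier results of these data known. Of 150 in the table, 111 were tested and 0 passed in either direction by edgeR. At an unadjusted p below 0.05 there were 3 of 111, where 3.5% of all tested genes passed. These were Fuca2, Tpcn2 and Atp6v0a1, which passed the filter on low counts through the group where they were high. Aga, with 0 counts in every PBS library and 845, 8 and 491 in DT, did not pass it, so this count depends on the filter. Fold changes of the 111 were positive in 50 and negative in 61, with a median log2 fold change of -0.14. The groups did not overlap for 4 of the 111, where 6.31% of all tested genes had no overlap. Further hydrolases had 9 positive and 13 negative of 22 tested. Fuca2, an α-fucosidase, had 21, 0, 0 and 0 counts across PBS 1 to 4 and 204, 1019 and 566 across DT 1 to 3 (log2 fold change 6.70, SE 3.00, edgeR adjusted p = 1.00), with no overlap of the groups. Ctsf, another cathepsin, and Scpep1, a serine carboxypeptidase, showed log2 fold changes of -3.45 and 2.36 (SE 3.75 and 2.80).

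Further membrane and transport proteins had 12 positive and 12 negative of 24 tested. The channel gene Tpcn2 had 305, 0, 59 and 109 counts under PBS and 0 in each DT library. Cd9, a tetraspanin, averaged 608 ± 185 CPM under PBS and 378 ± 96.5 CPM under DT (log2 fold change -0.68, SE 0.38). Cd164, a sialomucin, averaged 192 ± 51.2 and 350.5 ± 130.4 CPM (log2 fold change 0.87, SE 0.51). Among subunits of the proton pump itself, 9 were positive and 6 negative of 15 tested. Atp6v0a1, of the membrane part, had 0, 788, 410 and 66 counts under PBS and 0 in each DT library. Atp6v1h and Atp6v1g1, of the cytosolic part, showed log2 fold changes of -4.14 and 2.48 (SE 3.40 and 2.59). PBS 1 had 0 counts of all 3, so that the groups overlapped for Atp6v0a1 and Atp6v1h.

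Genes of nutrient sensing at the lysosome, through which mTORC1 holds Tfeb in the cytoplasm, had 8 positive and 8 negative of 16 tested. Rraga, a Rag GTPase, averaged 213 ± 179.5 CPM under PBS and 426 ± 152 CPM under DT, with 239 counts in PBS 3 and 2371 in PBS 4 (log2 fold change 1.00, SE 0.54). Lamtor1, which anchors the Rag GTPases, and Fnip2, a folliculin partner, showed log2 fold changes of -1.74 and -2.60 (SE 1.74 and 3.41). The Tfeb relative Tfe3 had counts in 3 DT and 2 PBS libraries, Mitf in DT 1 and DT 2 alone, and Tfec in none. These 3 were named because they belong to the family of Tfeb. Autophagy genes had 12 positive and 22 negative of 34 tested, with a median log2 fold change of -0.27. Plekhm1, an adaptor of lysosome fusion, had 285, 1, 385 and 314 counts under PBS and 0, 7 and 0 in DT. Vamp7, a fusion protein, had 0, 79, 0 and 0 counts under PBS and 1562, 206 and 0 in DT. The cargo receptor gene Nbr1 had 420, 150, 286 and 225 counts under PBS and 1569, 1155 and 394 in DT (log2 fold change 1.77, SE 1.12), and DT 3 overlapped with PBS.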

How the data were processed

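RNA of 7 libraries was read from 3′ ends with a Lexogen QuantSeq FWD kit, per the labels' protocols. The authors deposited unnormalized read counts, 1 row per gene symbol. Reads were placed on mm9, per the submitters' processing notes. How they were aligned, counted and annotated, with which strand setting and whether with molecular identifiers, is not given in the sources used here, so reads shared by overlapping genes or close paralogs cannot be separated. Groups and replicate numbers came from the titles.

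The whole table was fitted in edgeR 4.0.16 (R 4.3.3): filterByExpr, TMM scaling, robust quasi-likelihood F test of DT against PBS, two-sided, Benjamini-Hochberg adjustment over 7688 genes, threshold 0.05. CPM used the TMM-scaled library sizes. SE is the fold change divided by the root of F, and 95% intervals come from the t distribution on the degrees of freedom of the test. Since the labels do not tie libraries to animals, p-values measure only the spread between these libraries. Counts that are 0 and the floor of 3 counts cover counting error only.

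Alternatives were RLE and upper quartile factors, other filters, DESeq2 1.42.0, limma-voom (limma 3.58.1) with sample weights, the replicate number as a block, marker scores or Y-linked reads as covariates, removal of the Rn45s row, and leaving out each library. The macrophage score without Cd14 and Cd74 was added after seeing the data. Values in every library are given for lysosome genes whose average log2 CPM was at least 8, or with an unadjusted p below 0.05 or no overlap of the groups at a mean of 20 CPM or more, and for Tfeb and Mcoln1. Of each other list up to 3 genes with the smallest p are named. Others were chosen after their values were seen. Members and lists were chosen with earlier results of these data known. The fitting script was run on simulated counts in which only genes at 256 CPM or more were changed. It thus gives no measure of power for genes below that level. Promoter windows come from RefSeq on GRCm38.p6, another build than that of the counts, and were matched by symbol.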

Additional observations from a re-analysis of the deposited data

Results flagged for a closer look

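Of 35 values tested in the 4 PBS libraries (34 lysosome genes with a count in PBS and their summed level), 6 had 1 library far from the other 3. Chance flags about 1 in 20 groups of normally distributed values, a share that does not hold with the many 0 counts here. By the same measure 35.8% of all 10363 genes with a count in PBS stood out, and 17.2% of the tested genes against 3 of 31 tested lysosome genes (9.68%). The measure is the gap to the nearest other library as a share of the range of the group. It was 1, as it must be with counts in a single library, for Gla, Lipa and Sgsh, which had 65, 234 and 116 counts in PBS 4 and 0 in PBS 1 to 3. It was 0.998 for Gusb, with 98.0 CPM in PBS 1 and at most 0.197 CPM in the others, and 0.925 for Asah1, with 108 CPM in PBS 1 and at most 8.08 CPM in the others. For Man2b1 it was 0.841, with 127 CPM in PBS 2 and at most 20.1 CPM in the others. All 6 genes had 0 counts in at least 1 PBS library.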

How the results depend on the processing

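No lysosome gene was called by edgeR with RLE or upper quartile factors, no filter, filters at an average log2 CPM of 3 or 8, the marker scores, Rn45s removed or any 1 library left out, nor by DESeq2 or limma-voom. With the replicate block 1 was higher, Psap (log2 fold change 1.84, edgeR adjusted p = 0.00122). PBS 4 has no DT library of the same number, so the block leaves it out of the fold change. Without PBS 4 and without the block, Psap was at 1.82 (edgeR adjusted p = 0.365). Same-numbered libraries did not deviate together (correlations -0.0490 to 0.0259, 0 of 3 pairs over 0.1, 1 DT library best with its own number). With Y-linked reads as a covariate 2 were higher, Igf2r and Tpp1. Each had 0 counts in PBS 1, the 1 PBS library with such reads. The median log2 fold change of the lysosome genes (0.04) was -0.69 with the hepatocyte score, where that of all tested genes was -0.60, 0.61 with the replicate block (all tested genes 0.16), 0.58 with the Y-linked covariate (all tested genes 0.67), and -0.12 to 0.35 when 1 library was left out. Over all genes, higher calls (0) numbered 1 with no filter, 1 with the filter at 3, 29 by DESeq2, 6 by limma-voom, 6 with the block, 23 with the Y-linked covariate and 0 to 1 with 1 library left out. Lower calls (3) numbered 7 with no filter, 5 with the filter at 8, 82 by DESeq2, 6 by limma-voom, 6 with the block, 1 with the hepatocyte score and 1 to 4 with 1 library left out. The sign turned with the Y-linked covariate, thus against PBS 1 alone, for Ctsb (0.41) and Ctsl (0.14). For Ctsd it turned with the replicate block (0.48), which leaves out PBS 4, and also without PBS 4 (0.39). With 1 library left out Ctsb ran from -0.72 to 0.18, Ctsd from -0.59 to 0.39 and Ctsl from -0.65 to 0.15. By their design, the block and the Y-linked covariate limit which PBS libraries enter the fold change. For the other settings that did not themselves remove libraries or genes, the cause was not tested. Below about 1000 counts, the many 0 values limit what these libraries can show.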
